A study of Mus musculus with 4 samples.

Results

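The BCL2 family decides, at the outer membrane of the mitochondrion, whether a cell lives or starts apoptosis, and the genes described here are 10 of its members that act in lymphocytes. They were taken by symbol from the deposited gene table, which holds 17921 genes: Bcl2, Bcl2l1, Mcl1, Bcl2a1b and Bcl2a1d on the survival side, the effector Bak1, and the BH3-only genes Bcl2l11, Bmf, Bad and Bid. All 10 were found and all 10 passed the filter on low counts, which kept 12680 genes. Their expression was measured by RNA sequencing in cultured Th17 cells of the mouse, which are CD4+ T cells that secrete interleukin 17, from mice with a knockout of PRAK (PRAK KO) and from wild-type mice (WT). PRAK is a protein kinase downstream of p38 and is encoded by Mapkapk5. Naive CD4+ T cells of 2 PRAK KO and 2 WT mice were polarised towards Th17 in vitro for 72 h, and all cells in the culture, not a sorted fraction, were sequenced as total RNA, 1 library per mouse. The libraries are called WT 1, WT 2, KO 1 and KO 2 by the mouse numbers in the labels. The labels used here do not state the strain, age or sex of the mice, the cytokines, how the knockout was made or which cells it affects.

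Survival proteins of the family (BCL2, BCL-XL from Bcl2l1, MCL1 and A1 from the Bcl2a1 genes) hold the effectors BAK and BAX in check. BH3-only proteins such as BIM (Bcl2l11), BMF, BAD and BID bind the survival proteins, and some also engage the effectors, after which cytochrome c leaves the mitochondrion and caspases are activated. In T cells, BCL2 and MCL1 are maintained by cytokines of the common gamma chain, BCL-XL and A1 are induced by activation through the T cell receptor, costimulation and NF-kB, and BIM removes activated cells as cytokine runs out.

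The libraries were of like depth, with total expected counts between 19418012 and 20125124 and with 21672 to 23201 of these counts on the 10 members. Levels below are in CPM, counts scaled to a common library total with TMM factors, and pairs of values are always in the order of the mouse numbers. As a check of the labels, Mapkapk5 was at 35.6 and 38.4 CPM in WT cells and at 20.04 and 21.6 CPM in KO cells, lower but present. Its log2 fold change of KO over WT was -0.83 (adjusted p = 0.0194, edgeR), not called without WT 1 (0.0918) or WT 2 (0.169), and the deleted part of the gene is not stated in the labels. The 11 Th17 and T cell markers in the table were all expressed, among them Cd4 (739, 854, 516 and 940 CPM in WT 1, WT 2, KO 1 and KO 2) and Il17f (2224, 1987, 1994 and 637 CPM). Of them 1 rose, Ccr6, and 1 fell, Il23r, both named after their values were seen, and 0 fell without WT 1, without WT 2 or with limma on log2(TPM + 1). Of the 11 markers, 10 had a log2 fold change below 0 and 1 above, with a median of -0.17. Of all 12680 genes tested, 6118 lay below 0. Over all genes, 652 were higher and 1043 lower in KO at an adjusted p under 0.05, and scaling by library size alone gave 918 and 864. On the log2 scale KO 1 and KO 2 lay farther apart than WT 1 and WT 2 for 7 of the 10 members, for Bmf barely (0.41 against 0.38). The share of all genes for which this held was not counted, so it is not a trait of the members.

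In KO cells the family's survival genes moved in both directions: Bcl2 fell, Bcl2l1 and both Bcl2a1 genes rose, and Mcl1 lay lower without passing the test. Among the BH3-only genes Bcl2l11 fell and Bid rose, while Bmf, Bad and the effector Bak1 did not pass. Thus 4 members rose, 2 fell and 4 did not pass (quasi-likelihood test of edgeR, p adjusted over all genes by Benjamini-Hochberg). Of all 12680 genes tested, 13.4% were called, 5.14% higher and 8.23% lower. At an unadjusted p under 0.05 (edgeR), which is given for some lists below, 1914 of the 12680 were higher and 2100 lower. DESeq2 called 7.79% of all genes higher and 10.3% lower. The median log2 fold change of the members was 0.07, and that of all genes tested was 0.02. The libraries of the 2 genotypes did not overlap for 8 of 10 members, 5 higher and 3 lower in KO, where this held for 63% of all genes tested, 31.7% higher and 31.4% lower. These are bulk samples, in which a change in the share of a cell type and a change in RNA per cell cannot be told apart.

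**Figure D1:**
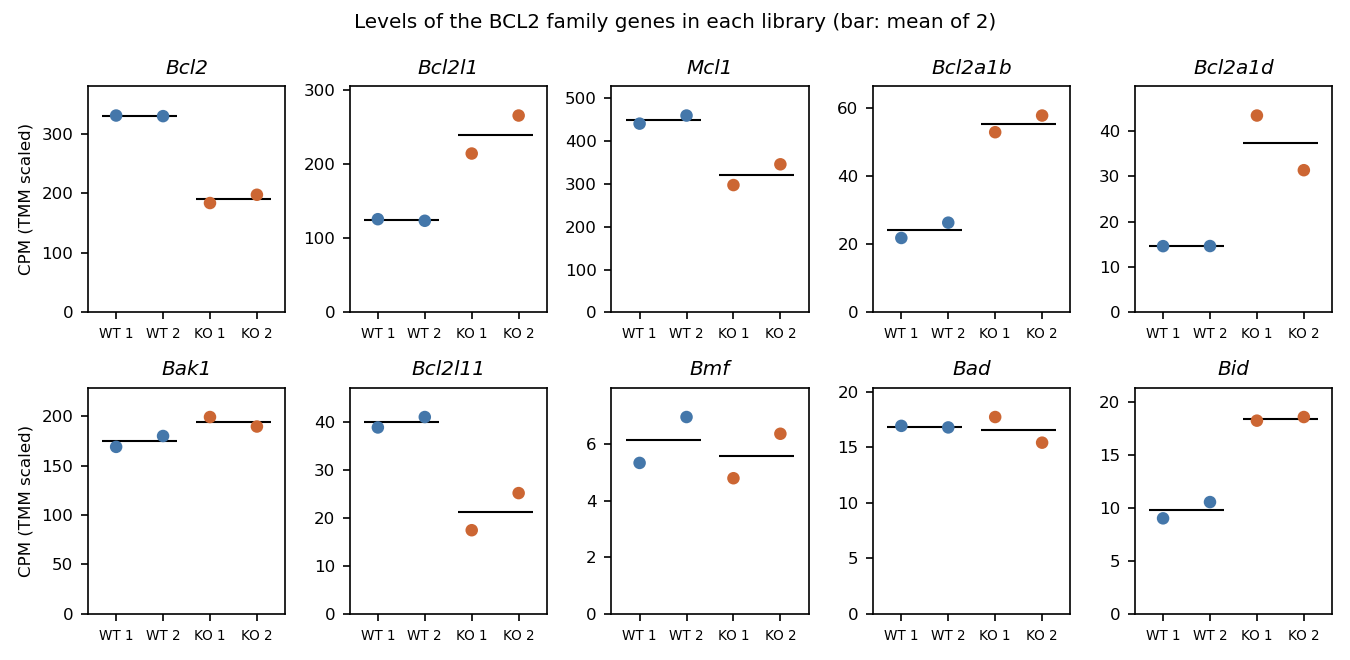
Each panel plots 1 gene in CPM with TMM scaling, from 0, in WT 1, WT 2 (blue), KO 1 and KO 2 (orange), with a bar at the mean of 2 libraries. Bcl2, Mcl1 and Bcl2l11 lie lower in both KO libraries, Bcl2l1, Bcl2a1b, Bcl2a1d, Bak1 and Bid lie higher, and Bmf and Bad overlap.

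Bcl2, the founding survival gene (gene ID 12043, chr1:106538176-106714290, GRCm38.p6), was at 330.2 and 329 CPM in the WT libraries and at 183 and 197 CPM in the KO libraries. Both KO libraries lay far below the WT libraries, which were nearly equal. The mean fell from 329.7 ± 0.719 to 190.4 ± 9.82 CPM (SD, n = 2 mice each). With edgeR the log2 fold change was -0.79, with an SE of 0.12, a 95% interval of -1.09 to -0.50 and an adjusted p of 0.0158.

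Bcl2l1 (gene ID 12048, chr2:152758732-152833803) moved the opposite way. It encodes BCL-XL, and its shorter spliced form promotes death, a difference that counts per gene do not show. The WT libraries held 126 and 124 CPM and the KO libraries 214 and 266. The KO libraries were both higher, with KO 2 above KO 1. The mean rose from 125 ± 1.51 to 239.9 ± 36.2 CPM, 1.92-fold, and the log2 fold change was 0.94 with an SE of 0.14 and an adjusted p of 0.0168 (edgeR).

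Mcl1 (gene ID 17210, chr3:95656944-95663179), a survival protein of very short life that T cells need throughout, was the most abundant survival transcript of WT cells. WT cells held 441 and 460.0 CPM of it, and KO cells 298 and 346. The genotypes did not overlap, but the difference did not pass the test (log2 fold change -0.49 with a 95% interval of -0.83 to -0.14, adjusted p = 0.0767, edgeR). DESeq2 did call it (adjusted p = 0.0147).

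Mouse carries several copies of the A1 gene, which arose by duplication and lie apart on chromosome 9. The table holds 4 of them, and the sequences below show how alike the 2 members are, since this limits what their separate counts can say. The coding sequences of Bcl2a1b and Bcl2a1d have 516 bases each and differ at 6 of them (98.84% identity, GENCODE M21 transcripts, GRCm38). The stretch from coding base 1 to 150 holds 3 of the 6, written in capitals:
Bcl2a1b: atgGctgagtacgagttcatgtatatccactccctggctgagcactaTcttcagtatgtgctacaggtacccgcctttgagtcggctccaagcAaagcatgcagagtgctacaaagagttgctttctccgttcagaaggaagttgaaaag
Bcl2a1d: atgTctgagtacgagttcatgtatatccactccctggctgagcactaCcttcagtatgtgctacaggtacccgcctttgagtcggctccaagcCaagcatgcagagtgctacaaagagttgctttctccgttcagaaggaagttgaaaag
Of all windows of 100 bases in the Bcl2a1d transcript, 54.71% also occur in the transcript of another Bcl2a1 gene, and of those in Bcl2a1b 31.06%. For windows of 50 bases the shares were 79.48% and 57.55%. A read as long as such a window and drawn from it fits several genes, and RSEM divides such reads by a model. The expected counts of Bcl2a1b and Bcl2a1d were not exact whole numbers in any library, and neither were those of Bcl2 and Bcl2l1. Those of Bcl2l11 were whole in 1 library, those of Bad in 3, and those of Mcl1, Bak1, Bmf and Bid in all 4.

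The DNA before the start sites of Bcl2a1b and Bcl2a1d is also alike. Whether this likeness bears on the rise of both genes was not tested. Capitals mark the bases that differ in the aligned stretch, 2 substitutions and 6 bases that Bcl2a1b has in addition (RefSeq promoter windows, GRCm38.p6, chr9:89199023-89199228 on the plus strand, ending 44 bases before the annotated start of Bcl2a1b, and chr9:88731851-88732050 on the minus strand, ending at the start of Bcl2a1d):
Bcl2a1b: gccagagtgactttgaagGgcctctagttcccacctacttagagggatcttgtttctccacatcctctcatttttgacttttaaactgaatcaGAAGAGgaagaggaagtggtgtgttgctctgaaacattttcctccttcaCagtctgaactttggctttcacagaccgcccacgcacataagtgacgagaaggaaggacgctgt
Bcl2a1d: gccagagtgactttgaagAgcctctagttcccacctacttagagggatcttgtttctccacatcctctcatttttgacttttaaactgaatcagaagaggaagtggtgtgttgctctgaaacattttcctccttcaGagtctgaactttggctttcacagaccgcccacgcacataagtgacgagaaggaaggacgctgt

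Both A1 members rose in KO cells. Bcl2a1b (gene ID 12045, chr9:89199273-89207838) went from 21.9 and 26.4 CPM in WT to 53.0 and 57.9 CPM in KO. Its log2 fold change was 1.20 with an SE of 0.14 and an adjusted p of 0.00960 (edgeR). Bcl2a1d (gene ID 12047, chr9:88723288-88731850) went from 14.6 CPM in both WT libraries to 43.4 and 31.4 CPM in KO, 2.56-fold. Its log2 fold change, 1.35 with an SE of 0.20 and an adjusted p of 0.0149 (edgeR), was the largest of the 10 with all libraries. Without KO 1 it was 1.10 and that of Bcl2a1b 1.26, so the order of the 2 turned, and it also rests on how reads were divided between them. The KO libraries were above the WT libraries for both genes, and they stood in opposite order, KO 2 higher for Bcl2a1b and KO 1 higher for Bcl2a1d.

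The sum over the 4 Bcl2a1 genes does not depend on how reads were divided between them. It was 36.8 and 41.9 CPM in WT against 98.2 and 92.9 CPM in KO. With the sum fitted as 1 gene, edgeR gave a log2 fold change of 1.28 with an SE of 0.13 (adjusted p = 0.00582), a 2.43-fold rise, and the KO libraries lay closer together than for Bcl2a1d alone. Bcl2a1b and Bcl2a1d made up nearly all of it: Bcl2a1a had 0, 8, 22 and 57 counts and Bcl2a1c had 5, 8, 15 and 15 in WT 1, WT 2, KO 1 and KO 2. Neither of these passed the test (adjusted p = 0.109 for Bcl2a1a and 0.192 for Bcl2a1c, edgeR).

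A1 is also strongly expressed in myeloid cells, and markers of other cells were measured beside it. Of 18 myeloid markers tested, 9 rose and 0 fell in KO (edgeR; also 0 lower at an unadjusted p under 0.05), and the median log2 fold change was 2.42. The count of higher markers was 13 with DESeq2, which called 7.79% of all genes higher. It also changed with a library left out, as did the share of all genes called. Among the 9 were Clec4n (0.410 and 0.471 CPM in WT, 7.36 and 17.2 in KO) and Lyz2 (1.54 and 3.08 in WT, 12.7 and 64.3 in KO), which were named after their values were seen. Their summed level was 82.9 and 119 CPM in WT and 197 and 372 in KO, led by Ctss (41.0, 46.0, 56.1 and 98.0 CPM in WT 1, WT 2, KO 1 and KO 2) and Cd68 (10.4, 16.6, 21.2 and 54.5 CPM), which did not pass in edgeR and were called by DESeq2 (adjusted p = 0.0243 and 0.00515). Summed B cell markers were 43.1 and 97.6 CPM in WT and 129 and 109.9 in KO, and summed CD8 T and NK markers were 197 and 376 in WT and 937 and 533 in KO. Among the highest of these, Pax5, Gzmb and Cd8a did not pass, and 1 gene of each list rose, Ms4a1 of 7 and Nkg7 of 8 (both named after their values were seen). With DESeq2 the B cell list had 2 higher genes and the CD8 T and NK list 3. All 8 log2 fold changes of the CD8 T and NK list were above 0. Nkg7 was not called without WT 1, and the B cell list had more higher genes without WT 2. Mast cell and basophil markers summed to between 23.2 and 60.1 CPM, most of it Kit, which lay lower in KO (-0.91, adjusted p = 0.105, edgeR). The other markers of that list had few counts, mostly highest in KO 2, such as Hdc (11, 16, 18 and 48 counts in WT 1, WT 2, KO 1 and KO 2). Gata2 (5, 5, 15 and 51 counts) and Mcpt8 (0, 3, 9 and 65 counts) were named after their values were seen. Erythroid markers, led by Hba-a1 and Hbb-bt, summed to between 1.11 and 7.01 CPM. No marker of these lists that the table held was at 0 in all 4 libraries. From KO 1 to KO 2 the Bcl2a1 sum went from 98.2 to 92.9 CPM and the myeloid sum from 197 to 372. The B cell sum went from 129 to 109.9 and the CD8 T and NK sum from 937 to 533. The part that other cells had in the level of the Bcl2a1 genes, or of the other members, was not tested.

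**Figure D2:**
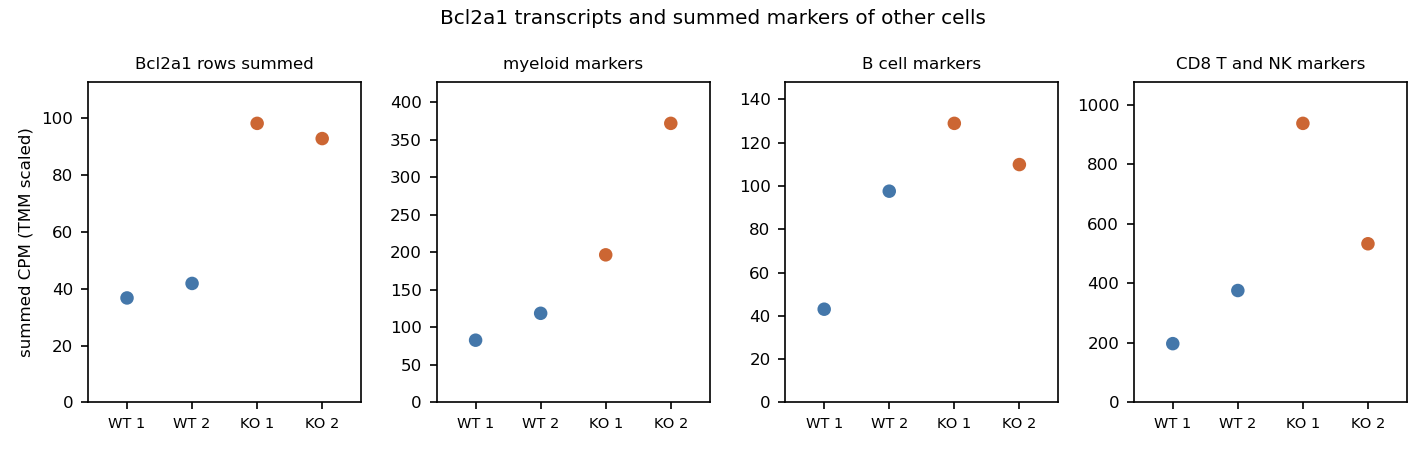
Summed CPM (TMM scaled, each axis from 0) of the 4 Bcl2a1 genes and of the myeloid, B cell, and CD8 T and NK marker lists in each library. The Bcl2a1 sum is 98.2 in KO 1 and 92.9 in KO 2. In the same libraries the myeloid sum is 197 and 372, the B cell sum 129 and 109.9, and the CD8 T and NK sum 937 and 533.

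By the likeness of their profile over the 4 libraries (Euclidean distance of log2 CPM centred on the gene's mean, among 10064 other genes of at least 5 CPM), the 3 genes nearest to Bcl2a1d were AA467197 (0.08), Pmepa1 (0.12) and Slc15a3 (0.12). Each was higher in KO 1 than in KO 2 and lowest in WT. With 4 libraries such likeness is a description only.

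Bcl2l11, the gene of BIM (gene ID 12125, chr2:128126038-128162547), was the one BH3-only member that fell. The WT libraries were at 38.8 and 41.0 CPM, the KO libraries at 17.4 and 25.2. Both KO libraries were lower, and they differed from each other by more than the WT libraries did. The mean fell from 39.9 ± 1.54 to 21.3 ± 5.46 CPM. In edgeR this was a log2 fold change of -0.91 with an SE of 0.20 and an adjusted p of 0.0427. With scaling by library size alone the adjusted p was 0.0552.

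FOXO factors are textbook activators of Bcl2l11, STAT factors of several survival genes and NF-kB of A1 and Bcl2l1, so the promoter windows of the members (16 windows of 300 bases, 250 before and 50 after each RefSeq start) were searched on both strands for the FOXO motif GTAAACA, the STAT motif TTCNNNGAA and the kappaB consensus of NF-kB. No match of one motif overlapped a match of another. GTAAACA matched once, 227 bases before one of the 2 starts of Bcl2l11, and TTCNNNGAA in 0 of the 16 windows. The kappaB consensus matched once in Bcl2l1, 242 bases before one of its 3 starts, and once in Bmf, at a start. The 250 bases before the matched starts of the called genes are shown with the match in capitals (Bcl2l1 from chr2:152830718-152830967 on the minus strand, Bcl2l11 from chr2:128125788-128126037 on the plus strand, GRCm38.p6):
Bcl2l1: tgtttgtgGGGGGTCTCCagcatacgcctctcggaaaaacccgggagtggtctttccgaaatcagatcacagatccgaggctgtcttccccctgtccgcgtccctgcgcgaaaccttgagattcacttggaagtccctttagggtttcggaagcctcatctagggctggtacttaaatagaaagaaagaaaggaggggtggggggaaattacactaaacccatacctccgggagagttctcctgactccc
Bcl2l11: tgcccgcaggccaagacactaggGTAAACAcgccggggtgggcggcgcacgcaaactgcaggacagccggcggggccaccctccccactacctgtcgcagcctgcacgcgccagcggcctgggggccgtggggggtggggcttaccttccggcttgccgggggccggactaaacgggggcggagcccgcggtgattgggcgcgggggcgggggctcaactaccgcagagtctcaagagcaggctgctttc
Among all 32851 promoter windows of the genome, 3.65% hold GTAAACA, 8.3% TTCNNNGAA and 8.46% the kappaB consensus.

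Bid, whose protein is cut by caspase 8 and carries the signal of death receptors to the mitochondrion (gene ID 12122, chr6:120893119-120917062), rose. It went from 9.02 and 10.6 CPM in WT to 18.2 and 18.6 CPM in KO. The KO libraries were nearly equal and well above the WT libraries, 1.88-fold. The edgeR log2 fold change was 0.91 with an SE of 0.17 and an adjusted p of 0.0289. Of its exonic bases 628 are shared with Bcl2l13 on the other strand, which did not pass (58.9 and 56.1 CPM in WT, 72.7 and 67.3 in KO, with 0.28 as log2 fold change and an adjusted p of 0.162, edgeR), and reads of the 2 genes cannot be told apart without strand.

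Bad, a sensitiser that phosphorylation by survival kinases keeps inactive (gene ID 12015, chr19:6941861-6951905), held 16.9 and 16.8 CPM in WT and 17.7 and 15.4 CPM in KO. The KO libraries lay on either side of the WT libraries. Its log2 fold change was -0.02 with a 95% interval of -0.42 to 0.37 (adjusted p = 0.933, edgeR). Bmf, which senses loss of attachment and other stresses (gene ID 171543, chr2:118528757-118549686), was the least expressed member at 5.33, 6.95, 4.79 and 6.36 CPM in WT 1, WT 2, KO 1 and KO 2. Its log2 fold change was -0.14 with an interval of -0.83 to 0.55 (adjusted p = 0.768, edgeR), with 99 to 133 counts per library. The signs of Bad and Bmf turned under some settings.

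Bak1, the effector that forms pores in the outer membrane (gene ID 12018, chr17:27019812-27028627), held 169 and 179.9 CPM in WT and 199 and 189.5 CPM in KO. The KO libraries were a little higher, by a log2 fold change of 0.16 with a 95% interval of -0.13 to 0.44 (adjusted p = 0.397, edgeR). Exons of Bcl2, Bak1 and Bad also overlap a gene on the other strand, over 558, 614 and 524 bases, and those of Bcl2a1b overlap a gene on the same strand over 401. Of these neighbours the table holds Ggnbp1, across Bak1 (log2 fold change -0.42, adjusted p = 0.633, edgeR), and Gpr137, across Bad (-0.16, adjusted p = 0.569, edgeR).

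**Figure D3:**
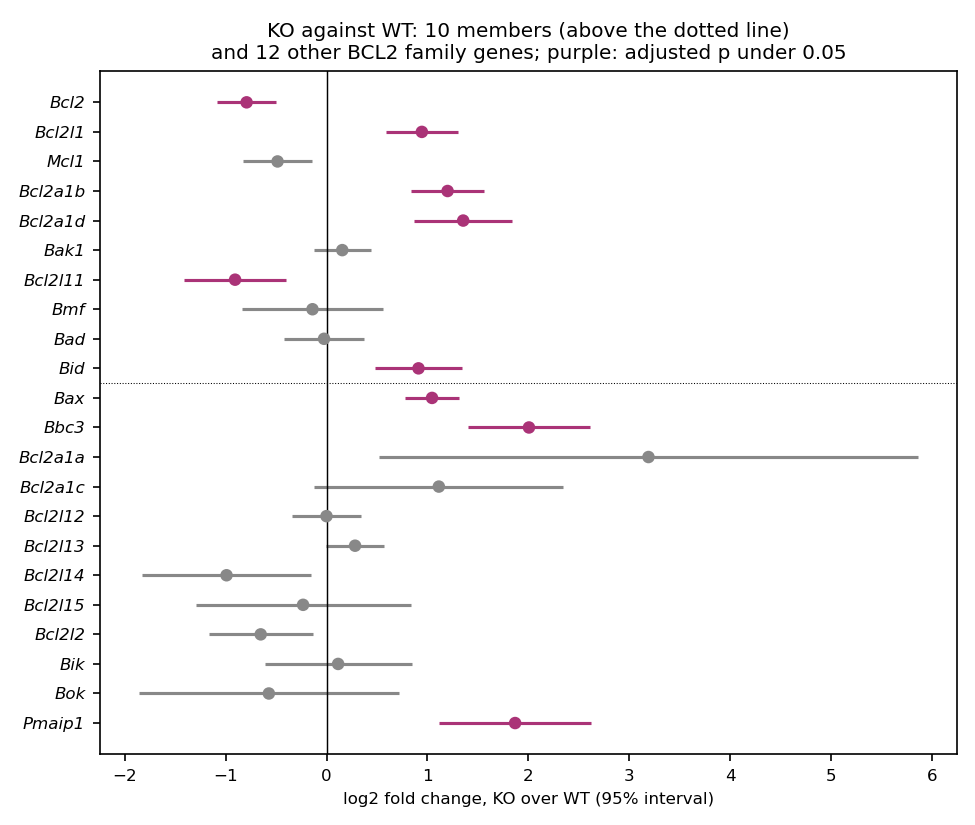
Log2 fold change of KO over WT with its 95% interval from the edgeR fit, for the 10 members above the dotted line and 12 other family genes below it. Purple marks an adjusted p under 0.05, and among the other genes Bax, Bbc3 and Pmaip1 carry it.

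Whether these calls held depended on which library was left out. Without a WT library the spread within a genotype comes from the KO pair alone, and without a KO library from the WT pair. Only Bcl2a1b and Bcl2a1d were called with each library left out in turn. Without WT 1 the adjusted p was 0.117 for Bcl2, 0.0734 for Bcl2l1, 0.0866 for Bcl2l11 and 0.271 for Bid, and without WT 2 it was 0.123, 0.0849, 0.130 and 0.148 (edgeR). Their log2 fold changes kept their sign, from -0.85 to -0.74 for Bcl2, from 0.78 to 1.09 for Bcl2l1, from -1.20 to -0.67 for Bcl2l11 and from 0.80 to 1.02 for Bid. Without WT 1 the members called were 2 higher and 0 lower, where 1.59% of all genes were called higher and 3.87% lower. Without WT 2 they were also 2 and 0 (1.85% and 3.43% of all genes). With a KO library left out the 6 calls held and Mcl1 joined them, at an adjusted p of 0.0128 without KO 1 (17.3% of all genes called higher and 18.7% lower) and 0.000499 without KO 2 (22.2% and 24%). In fits with a library left out, the lone library of a genotype is assumed to vary like the pair of the other. With all libraries, 4 members were called higher and 2 lower also with no filter on low counts (3.93% and 6.51% of all genes) and with limma on log2(TPM + 1) (4.91% and 6.1%). The counts were 4 and 1 with scaling by library size alone (7.24% and 6.81%), 4 and 3 with DESeq2 (7.79% and 10.3%), and 4 and 3 with the mouse number as a block (10.6% and 12.6%).

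**Figure D4:**
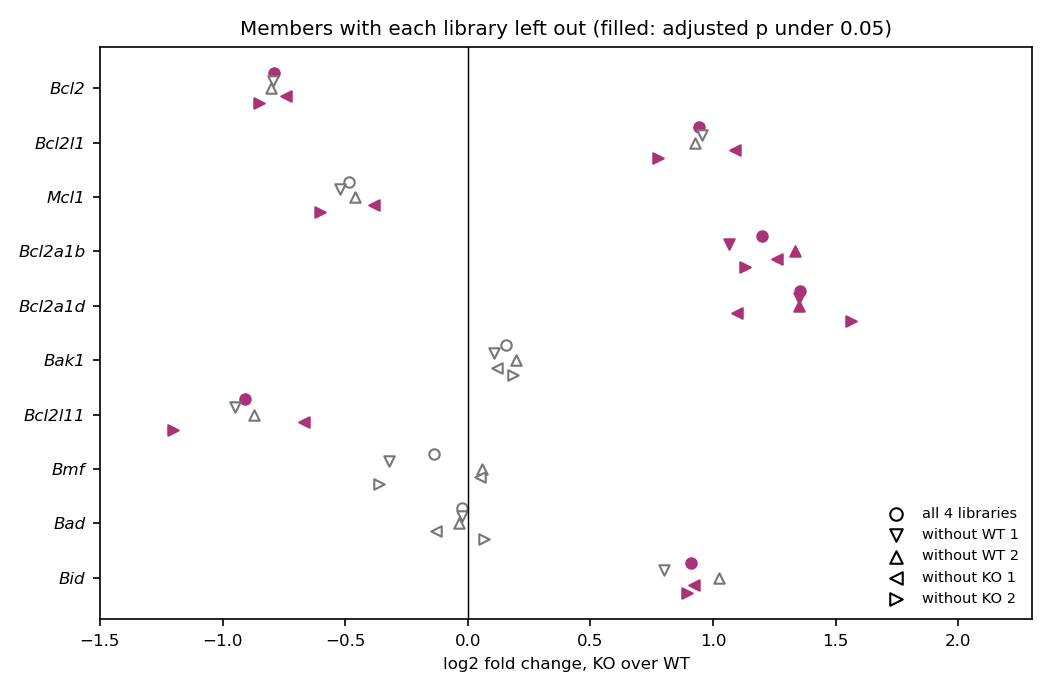
Log2 fold change of KO over WT for each member, with all 4 libraries (circles) and with each library left out (triangles). Filled marks have an adjusted p under 0.05, and only Bcl2a1b and Bcl2a1d are filled in all 5 rows.

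Levels of different genes can be compared on the deposited TPM, which is scaled to gene length. In both WT libraries the order of TPM was Mcl1, Bak1, Bcl2l1, Bcl2, Bcl2a1b, Bcl2a1d, Bad, Bcl2l11, Bid and Bmf, from 235 ± 1.61 TPM for Mcl1 to 2.40 ± 0.375 for Bmf (SD, n = 2). Bcl2l1 (92.2 ± 3.45) and Bcl2 (83.1 ± 2.85) were close neighbours in it. In KO 1 Bak1 led (201 TPM), followed by Bcl2l1 (178) and Mcl1 (171), and in KO 2 Bcl2l1 led (207), followed by Mcl1 (187) and Bak1 (179). The ranges of these 3 over the KO libraries overlapped. Bcl2 stood below both Bcl2a1 genes in either KO library, and Bid (19.5 and 18.5 TPM) stood above Bcl2l11 (7.77 and 10.03).

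The 5 survival members summed to 503 and 504 TPM in WT against 660.0 and 670.4 in KO. In CPM, which is not scaled to length, the same sum went the other way, from 934 and 954 to 792 and 898, so its direction depends on the unit. Mcl1 was 46.4% and 46.7% of that sum in WT and 26.0% and 27.9% in KO, and Bcl2 went from 16.9% and 16.1% to 7.98% and 7.79%. Bcl2l1 was 18.8% and 17.8% in WT and 27.0% and 30.9% in KO. Bcl2a1b and Bcl2a1d together held less of it than Mcl1 in WT and more in KO, with Bcl2a1b at 10.9% and 12.7% in WT and at 21.9% and 22.0% in KO, and Bcl2a1d at 6.94% and 6.72% in WT and at 17.2% and 11.4% in KO. The ratio of Bcl2l1 to Bcl2 TPM was 1.11 in both WT libraries, 3.38 in KO 1 and 3.96 in KO 2. That ratio did not overlap between the genotypes, but 2 libraries against 2 cannot give an exact permutation p below 0.333, and no ratio was tested.

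The 4 BH3-only members summed to 56.5 and 58.1 TPM in WT and 61.9 and 58.8 in KO. Bcl2l11 held 28.0% of it in both WT libraries and 12.5% and 17.1% in KO, and Bid 15.6% and 17.2% in WT and 31.4% in both KO libraries. Bad held the largest part in each library, from 47.1% to 52.7%. The ratio of Bid to Bcl2l11 TPM was 0.557 and 0.615 in WT and 2.50 and 1.84 in KO. The ratio of Bcl2 to its binding partner Bcl2l11, both of which fell, overlapped between the genotypes (5.38 and 4.99 in WT, 6.78 and 5.21 in KO).

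**Figure D5:**
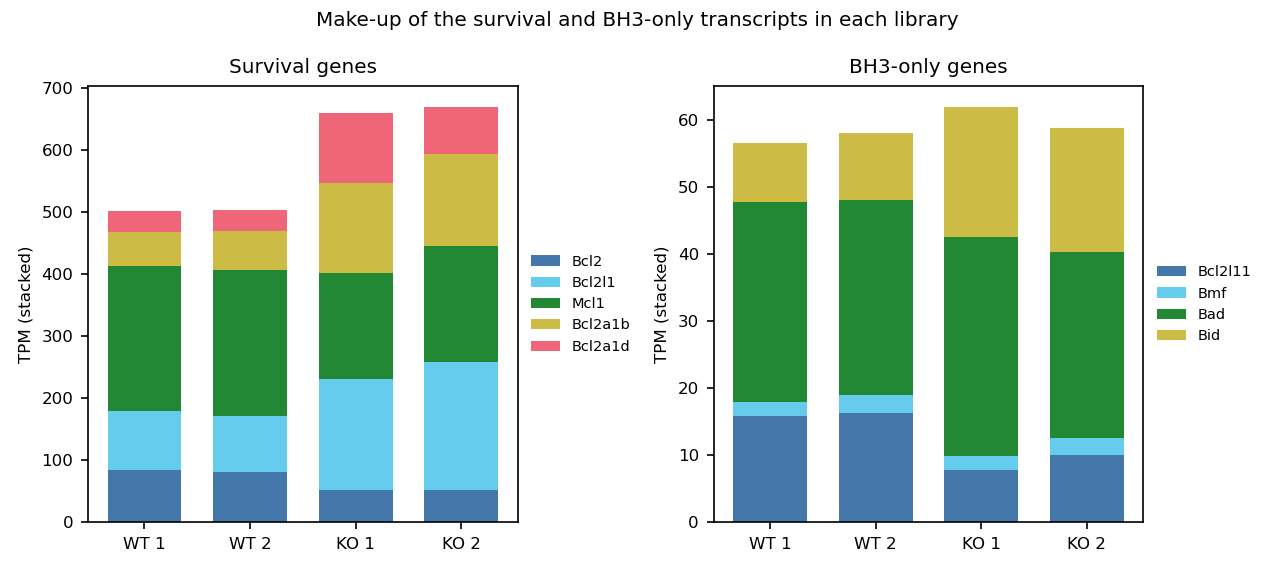
Stacked TPM from 0 of the 5 survival members and of the 4 BH3-only members in each library. The survival sum is 503 and 504 TPM in WT and 660.0 and 670.4 in KO, and the parts of Bcl2l1, Bcl2a1b and Bcl2a1d are larger in KO while those of Mcl1 and Bcl2 are smaller.

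Among the other genes of the family, 3 that promote death rose. Of 14 other family genes on a list, 12 were tested, with a median log2 fold change of 0.20. At an unadjusted p under 0.05, 4 were higher and 2 lower (edgeR), and with DESeq2 3 and 0. In edgeR 3 rose and 0 fell. The 3 are Bax, Bbc3 and Pmaip1, all textbook p53 targets. Bax, the second effector, went from 76.7 and 78.5 CPM in WT to 157 and 163 CPM in KO (log2 fold change 1.05, SE 0.11, adjusted p = 0.00646, edgeR). Bbc3, the BH3-only gene of PUMA, went from 9.64 and 11.1 to 32.9 and 50.4 CPM (2.01 with SE 0.24, adjusted p = 0.00989, edgeR). Pmaip1, the gene of NOXA, which binds MCL1, went from 7.02 and 8.10 to 20.1 and 35.2 CPM (1.87 with SE 0.30, adjusted p = 0.0202, edgeR). Each of the 3 was called with any library left out. The survival gene Bcl2l2 lay lower without passing (-0.65, adjusted p = 0.0967, edgeR).

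With Bbc3 and Pmaip1 counted, the BH3-only TPM summed to 70.8 and 74.0 in WT and 113 and 134 in KO, and the ratio of survival to BH3-only TPM was 7.10 and 6.82 in WT and 5.84 and 4.995 in KO. Over the 4 members alone the same ratio was 8.90 and 8.69 in WT and 10.7 and 11.4 in KO, so its direction rests on which BH3-only genes are counted. The ratio of Bax to Bak1 TPM went from 1.06 and 1.02 in WT to 1.85 and 2.01 in KO.

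Genes that act at or after the mitochondrial step went both ways. Of 21 genes of cytochrome c release, the apoptosome, caspases and their inhibitors, 2 rose, 3 fell and 16 did not pass, with a median log2 fold change of 0.00. Casp6, an executioner caspase gene, fell from 157 and 150.3 CPM in WT to 45.4 and 46.6 in KO (-1.74 ± 0.11 SE, adjusted p = 0.00222, edgeR). Vdac1, a channel of the outer membrane, fell from 436 and 426 to 199.7 and 183 CPM (-1.17 ± 0.12 SE, adjusted p = 0.00702, edgeR). Casp9, the initiator caspase of the apoptosome, fell (-0.78, adjusted p = 0.0323, edgeR), and with limma on log2(TPM + 1) its adjusted p was 0.0525. Apaf1, the scaffold of the apoptosome, named after its values were seen, rose by a log2 fold change of 0.48 (adjusted p = 0.0480, edgeR). The calls of Casp9 and Apaf1 were lost without WT 1 (adjusted p = 0.218 and 0.430) or WT 2 (0.243 and 0.456), and the list then held 0 higher genes.

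Of 14 death receptor and necroptosis genes 2 rose and 0 fell (edgeR), where 5.14% of all genes rose and 8.23% fell. At an unadjusted p under 0.05, 4 were higher and 3 lower (edgeR), and with DESeq2 3 and 0. Tnfrsf10b, the mouse TRAIL receptor, rose from 26.5 and 27.4 to 51.1 and 70.6 CPM (1.17 ± 0.18 SE, adjusted p = 0.0180, edgeR). Tnfsf10, the gene of TRAIL itself, rose from 5.69 and 6.59 to 11.2 and 18.5 CPM (1.27, adjusted p = 0.0473, edgeR), a call lost without WT 1 (adjusted p = 0.161) or WT 2 (0.0946). With limma on log2(TPM + 1) the adjusted p of Tnfsf10 was 0.0507. Ltbr (2.39, adjusted p = 0.0516, edgeR) and Tnfrsf1b (0.48, adjusted p = 0.0919, edgeR) did not pass. Ltbr had 4, 12, 53 and 37 counts in WT 1, WT 2, KO 1 and KO 2. It was called with DESeq2 (adjusted p = 0.0306), limma (0.0305), library-size scaling (0.0449), no filter (0.0463) and the mouse number as a block (0.0138). With that block Tnfrsf1b was called too (adjusted p = 0.0342, edgeR).

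Among receptors and signal carriers of the survival cytokines, Il7r, Jak3, Stat5b and Il6ra fell. Il2rg, the common gamma chain gene itself, named after its values were seen, lay higher without passing (0.41, from 609.98 and 659 to 823 and 865 CPM, adjusted p = 0.110, edgeR). Of 12 such genes 0 rose and 4 fell (edgeR), with a median log2 fold change of -0.48. At an unadjusted p under 0.05, 1 was higher and 6 lower (edgeR), and with DESeq2 also 1 and 6. Il7r, the receptor chain for interleukin 7, fell from 186 and 195 to 96.7 and 114 CPM (-0.85, adjusted p = 0.0168, edgeR). Jak3, the kinase of the common gamma chain, fell from 1047 and 1124 to 473 and 613 CPM (-0.999, adjusted p = 0.0256, edgeR). Stat5b (-0.79, adjusted p = 0.0250, edgeR) and Il6ra (-0.76, adjusted p = 0.0199, edgeR) fell as well. Without WT 1 their adjusted p was 0.0530 for Il7r, 0.0898 for Jak3, 0.171 for Stat5b and 0.107 for Il6ra, and without WT 2 it was 0.0810, 0.140, 0.147 and 0.120.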

How the data were processed

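The deposited table gives, per the file headers, an expected count, an FPKM and a TPM per gene and library. The deposited expected counts are unnormalised estimates, of which 69.4% were exact whole numbers. The deposited TPM adjust for gene length and a common library sum, and the deposited FPKM for length and library size. Of tools, RSEM 1.2.12, HISAT2 2.0.4 and Bowtie2 2.2.5 are listed in the submitters' processing notes, with the build GRCm38.p6 and no roles. The kit, strandedness and annotation release are not stated there. Near-identical genes share reads by RSEM's model.

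Expected counts were rounded, filtered with filterByExpr (minimum count 10, total 15, 5241 genes removed), scaled with TMM and fitted with genotype as the single term in edgeR 4.0.16 (R 4.3.3, robust quasi-likelihood test). The p-values were adjusted by Benjamini-Hochberg over 12680 genes, and an adjusted p under 0.05 is called a rise or fall. Standard errors were derived from F statistics. Intervals used the test's degrees of freedom, 2 residual plus a prior (median 3.58) that edgeR estimates over all genes. CPM use TMM scaling, and folds against low counts depend on edgeR's prior count. Alternatives were library-size scaling, DESeq2 1.42.0, no filter, limma 3.58.1 on log2(TPM + 1), the mouse number as a block, and each library left out. On simulated data for KO against WT (12503 genes), 75 of 100 changes of 1 on the log2 scale and 100 of 100 changes of 2 were recovered, with 14 false calls. The simulation gave both genotypes the same spread and changed few genes, none of the least expressed, so its rates may not hold for these libraries.

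Named genes were all members, Mapkapk5, Bcl2a1a, Bcl2a1c, the 4 genes of smallest p of each apoptosis list, the 2 most abundant of each marker list and the 3 profiles nearest to the most changed member. Some genes that this rule names are not reported here. The members and lists were chosen with earlier results of these data known. Coordinates are RefSeq GRCm38.p6, matched by gene ID (17787 of 17921 genes). Trac, Igkc and Ighm of the marker lists had no row under these symbols and were not analysed here. The protein sequences were not used here.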

Additional observations from a re-analysis of the deposited data

How the results depend on the processing

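Among the 10 members, the sign of the log2 fold change held under all settings run except for Bmf (0.058 without WT 2 and 0.05 without KO 1, and from -0.36 to 0.058 with 1 library left out) and Bad (0.073 with library-size scaling, 0.028 with limma on log2(TPM + 1), and from -0.13 to 0.067, the last without KO 2, with 1 library left out). Among the named markers the sign turned for Cd4 (0.24 without KO 1, from -0.63 to 0.24 with 1 library left out) and Hbb-bt (0.079 with library-size scaling, 0.86 without WT 1 and 0.73 without KO 1, from -1.66 to 0.86 with 1 library left out). The 4 members called higher were 4 under every setting with all libraries and between 2 and 4 with 1 library left out. The members called lower were 2, but 1 with library-size scaling, 3 with DESeq2, and between 0 and 3 with 1 library left out (edgeR; 2 lower at an unadjusted p under 0.05 without either WT library). Over all genes, DESeq2 called 988 higher, and leaving out 1 library gave between 209 and 2881 higher and between 450 and 3118 lower. The summed Bcl2a1 genes were called under all settings, at log2 fold changes from 1.19 to 1.38. The log2 difference of the Bcl2l1 to Bcl2 ratio was 1.72 on TPM or FPKM and 1.73 on CPM.

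The mouse numbers are shared by the genotypes, but nothing in the labels pairs the mice, and the deviations of WT 1 and KO 1 from their genotype means correlated at 0.17 across 12680 genes. With the replicate block 1338 genes were higher and 1597 lower, and of the members 4 and 3, Mcl1 being added (adjusted p = 0.0343, edgeR). With 2 mice per genotype the spread rests on 2 residual degrees of freedom and on the prior added to them. At 99 to 133 counts per library Bmf had the largest standard error of the members (0.28). Counts per gene do not separate the splice forms of Bcl2l1, Mcl1 or Bcl2l11.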

Other observations

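Genes that drive the family, or handle its proteins, were measured as 2 further lists. Of 16 transcription factors 3 rose and 1 fell. Egr1, an early gene of T cell receptor signalling, rose by 0.94 on the log2 scale, from 124 and 112 to 221 and 231 CPM (adjusted p = 0.0104, edgeR). Of the NF-kB genes on the list, Rel and Nfkb2 rose. Rel rose by 0.99, from 17.6 and 17.0 to 28.2 and 40.9 CPM (adjusted p = 0.0377, edgeR), and Nfkb2 by 0.74 (adjusted p = 0.0356, edgeR). Nfkb1 (-0.07), Rela (0.22) and Relb (0.17), named after their values were seen, did not pass in edgeR. Stat3, which carries interleukin 6 signals, fell from 1022 and 950.3 to 533 and 514 CPM (-0.91, adjusted p = 0.0168, edgeR). The call of Egr1 was lost without WT 2 (adjusted p = 0.104). Those of Rel, Nfkb2 and Stat3 were lost without WT 1 (0.0906, 0.188 and 0.166) and without WT 2 (0.110, 0.329 and 0.117).

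Genes whose products bind, modify or degrade family members formed the other list. Of 21 tested, 0 rose and 1 fell (edgeR; 4 higher and 2 lower at an unadjusted p under 0.05, and 1 and 2 with DESeq2), and the median log2 fold change was 0.13. The one that fell was Pim3, a kinase gene of the family that phosphorylates BAD (-0.57, from 118 and 115 to 75.2 and 81.1 CPM, adjusted p = 0.0305, edgeR, and 0.283 without WT 1 and 0.262 without WT 2). With limma on log2(TPM + 1) the adjusted p of Pim3 was 0.0768. Trim17 (1.58, adjusted p = 0.0659), Ppp3ca (0.57, adjusted p = 0.0722) and Dynll2 (0.52, adjusted p = 0.0737), the last a light chain that binds BMF, did not pass in edgeR.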
